A study of Mus musculus with 9 samples.

Results

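Molecular chaperones bind unfolded protein chains and use cycles of ATP binding to fold them, hold them or pass them on for destruction. In the cytosol the HSP70 proteins work with J-domain proteins (the Dnaj genes), which bring clients and start the ATPase, and with HSP110 proteins, which exchange the nucleotide; HSP90 finishes many kinases and receptors, and the ring-shaped CCT complex folds actin and tubulin. When unfolded protein builds up, the transcription factor HSF1 binds repeats of nGAAn, called heat shock elements, and raises a subset of these genes, of which the near-identical Hspa1a and Hspa1b are the textbook examples.

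The genes described here are the heat shock and cytosolic chaperone genes of mouse regulatory T cells (Tregs), CD4 T cells that express Foxp3 and hold immune reactions in check. They are the rows whose symbol starts with Hsp or Dnaj, with Tcp1 and Cct2 to Cct8, which encode the CCT subunits; Hspg2 and Hspbap1, which are not chaperones, and the endoplasmic reticulum genes Hspa5, Hsp90b1, Dnajb9, Dnajb11 and Dnajc3 were left out. Of 77 such rows, 63 had at least 10 counts in at least 3 libraries and were kept, out of 23393 gene rows in all. The last ones kept were Hspb1, Hspb6 and Dnajc28, whose third-highest counts were 21, 30 and 32, and the first ones dropped were Cct6b and Dnajb3 at 7 and Hspb9 at 3. The 14 dropped rows were Cct6b, Dnajb3, Dnajb7, Dnajb8, Dnajc5b, Dnajc5g, Dnajc22, Hspa1l, Hspa12b, Hspb2, Hspb3, Hspb7, Hspb8 and Hspb9. All 63 kept genes were among the 12219 genes tested.

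RNA was sequenced from Tregs of mouse spleen in 3 groups of 3 libraries. ST2KO denotes the knockout of ST2, the interleukin-33 receptor encoded by Il1rl1, and the other groups are wild-type (WT) cells labelled ST2-high or ST2-low by their ST2 level. The series text calls the cells sorted, but how they were sorted and whether ST2KO cells were gated on ST2 is not given. Age, strain, treatment and knockout allele are not given for any group either. They also do not say whether the 3 libraries of a group came from separate mice, so p-values measure the spread between these libraries, which may be technical.

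Il1rl1 stood at 57.7, 61.4 and 83.6 CPM in ST2KO, against 516, 421 and 547 in ST2-high and 2.16, 3.58 and 2.11 in ST2-low, where CPM is the count per 1e+06 counts of a library after TMM scaling. The ST2KO libraries thus held Il1rl1 reads at an intermediate level; whether these come from outside the deleted part of the gene cannot be told from counts per gene. Foxp3 was between 410 and 443 CPM in ST2KO, 531 and 622 in ST2-high, and 445 and 478 in ST2-low. The 6 Treg markers Foxp3, Il2ra, Ctla4, Ikzf2, Cd4 and Cd3e summed to between 3674 and 3801 CPM in ST2KO, 5246 and 5535 in ST2-high, and 4619 and 4760 in ST2-low. Library totals ranged from 11659659 counts in ST2KO replicate 3 to 43406680 in ST2KO replicate 1, and the members took between 0.569% and 0.803% of the counts. ST2-high replicate 3 stood apart from both other ST2-high libraries, with a chi-square per gene of 16.52 and 19.89 where no other pair within a group exceeded 8.22. Since tissue cells were sequenced in bulk, fewer cells of a type and less RNA per cell cannot be told apart.

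The promoters of the 4 heat-inducible members with a window that rose most in ST2KO against ST2-low, of Hspe1 and of Cct6a, a CCT gene that was not called, are shown to let the heat shock element be seen. Dnajb1, which rose more than Hspa4l against ST2-high, is not shown and has no match in its windows. Each window runs from 250 bases before to 50 after the start site, 5′ to 3′ on the gene's strand, from RefSeq on GRCm38.p6. Capitals mark each match to GAANNTTC or TTCNNGAA, which are a pair of element units in either arrangement, searched on both strands with overlapping matches joined. Hspa1b lies at chr17:34959189-34959488 on the minus strand and Hspa1a at chr17:34972107-34972406 on the minus strand. Hsph1 lies at chr5:149636287-149636586 (minus), Hspa4l at chr3:40745363-40745662 (plus), Hspe1 at chr1:55087898-55088197 (plus) and Cct6a at chr5:129787106-129787405 (plus).
Hspa1b: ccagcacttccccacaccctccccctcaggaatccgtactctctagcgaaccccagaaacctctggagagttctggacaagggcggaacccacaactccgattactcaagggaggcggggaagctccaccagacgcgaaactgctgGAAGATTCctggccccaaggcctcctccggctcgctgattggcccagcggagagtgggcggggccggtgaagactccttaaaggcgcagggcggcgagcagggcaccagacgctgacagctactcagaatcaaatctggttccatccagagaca
Hspa1a: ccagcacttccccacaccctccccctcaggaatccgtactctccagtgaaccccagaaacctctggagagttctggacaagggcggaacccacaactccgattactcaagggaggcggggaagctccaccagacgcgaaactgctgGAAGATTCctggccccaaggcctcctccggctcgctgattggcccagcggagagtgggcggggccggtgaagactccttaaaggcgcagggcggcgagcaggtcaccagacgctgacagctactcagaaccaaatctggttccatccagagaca
Hsph1: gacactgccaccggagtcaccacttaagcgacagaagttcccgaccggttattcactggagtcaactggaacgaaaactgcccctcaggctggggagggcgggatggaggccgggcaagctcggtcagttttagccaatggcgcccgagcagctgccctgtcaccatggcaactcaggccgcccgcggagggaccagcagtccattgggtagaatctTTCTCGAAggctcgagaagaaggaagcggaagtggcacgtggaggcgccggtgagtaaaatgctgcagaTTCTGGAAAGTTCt
Hspa4l: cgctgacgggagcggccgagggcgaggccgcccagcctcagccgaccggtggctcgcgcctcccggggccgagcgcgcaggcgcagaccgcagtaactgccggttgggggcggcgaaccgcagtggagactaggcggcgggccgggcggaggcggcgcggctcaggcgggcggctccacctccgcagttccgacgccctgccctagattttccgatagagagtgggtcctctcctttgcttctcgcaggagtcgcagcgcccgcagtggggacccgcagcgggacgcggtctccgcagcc
Hspe1: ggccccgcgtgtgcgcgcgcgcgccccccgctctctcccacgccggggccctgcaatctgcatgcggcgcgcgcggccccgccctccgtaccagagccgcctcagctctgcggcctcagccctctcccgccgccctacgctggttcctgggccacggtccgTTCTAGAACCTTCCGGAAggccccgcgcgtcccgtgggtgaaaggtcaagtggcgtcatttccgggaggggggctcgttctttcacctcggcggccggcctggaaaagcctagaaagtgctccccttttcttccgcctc
Cct6a: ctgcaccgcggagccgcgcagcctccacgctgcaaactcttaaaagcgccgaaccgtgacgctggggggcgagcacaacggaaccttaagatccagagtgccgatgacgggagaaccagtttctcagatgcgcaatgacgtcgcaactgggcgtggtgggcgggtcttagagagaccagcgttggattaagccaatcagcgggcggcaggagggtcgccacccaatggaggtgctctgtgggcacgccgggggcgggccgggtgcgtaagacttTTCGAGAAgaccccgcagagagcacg
The Hspa1a and Hspa1b windows differed at 4 of 300 bases. Hspa4l had no match in its window, and Hspe1, which was added after its values were seen because it is divergent with Hspd1, had the longest run of units among those shown.

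Promoter windows were found for 51 of the 63 members; Hspa8, Hsp90aa1 and Hsp90ab1 were among those without one. A pair of units, GAANNTTC or TTCNNGAA, was present in 16 of the 51, against 17% of all genes with a window and 15.1% of all windows of this length. Of the heat-inducible members with a window 8 of 11 had it, and of the other members 8 of 40. That list, given below, was of genes known to be heat-inducible and was chosen with earlier results of these data known. More matches in it could be foreseen from that choice and are not a result of these libraries. The 3-unit motif GAANNTTCNNGAA, searched on both strands, was present in Hsph1, Hspd1, Hspe1 and Dnajb6, so in 4 of 51 members, against 0.662% of genes with a window. A match describes letters in the window and is not evidence of binding. Dnajb6, which carries the 3-unit motif, was lower in ST2KO than in both wild-type groups (values below).

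In ST2KO Tregs a few classically heat-inducible chaperones were much higher than in either wild-type group, led by Hspa1b, Hspa1a and Hsph1, while the abundant HSP90 genes and most CCT subunits were not called. Over the 63 members the calls ran in both directions. Against ST2-low, 19 members were called higher and 16 lower at an adjusted p of 0.05 (quasi-likelihood test of edgeR, Benjamini-Hochberg over the 12219 genes). Of all tested genes, 33.0% were called higher and 29.3% lower. Against ST2-high, 20 were higher and 17 lower, where 31.9% and 32.6% of all genes were called. Without ST2-high replicate 3 the counts were 20 and 22, where 62.6% of all genes were called in either direction. The share of members called, 55.6% against ST2-low and 58.7% against ST2-high, was thus near or below the background of 62.3% and 64.5%. The median log2 change over the members was 0.005 against ST2-low and 0.029 against ST2-high, beside 0.051 and 0.02 over all genes. Counted by libraries alone, 22 members were higher and 19 lower in every ST2KO library than in every ST2-low library, where 36.0% and 31.2% of all genes were, and 20 higher and 17 lower than in every ST2-high library, where 33.5% and 33.3% were. Both comparisons use the same ST2KO libraries and are given side by side, not as repeats of each other.

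A list of 14 members known to be heat-inducible (Hspa1a, Hspa1b, Hspa8, Hsph1, Hspa4, Hspa4l, Hsp90aa1, Hsp90ab1, Hspd1, Hspe1, Hspb1, Dnaja1, Dnajb1 and Dnajb4) had 7 genes higher, 1 lower and 6 not called in ST2KO, against ST2-low and against ST2-high alike. The genes not called were Hsp90aa1, Hsp90ab1, Hspd1, Hspb1, Dnaja1 and Dnajb4, and the lower one was Hspa4. The list's median log2 change was 0.41 against ST2-low and 0.42 against ST2-high. The 49 members outside that list had medians of -0.05 and -0.03, with 12 higher and 15 lower against ST2-low and 13 higher and 16 lower against ST2-high. The share called was 57.1% of the list in each comparison, and 55.1% and 59.2% of the other members. Both were below the 62.3% and 64.5% of all tested genes. The list was chosen with earlier results of these data known.

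The stress-inducible HSP70 pair gave the largest changes. Hspa1b was at 21.7, 14.1 and 37.9 CPM in ST2KO, against 1.22, 1.22 and 0.923 in ST2-high and 1.67, 1.27 and 1.11 in ST2-low. Every ST2KO library lay far above every wild-type library, and the wild-type groups overlapped. The difference was 17.9-fold against ST2-low (log2 4.16 ± 0.43 SE, adjusted p = 5.0e-05) and 21.0-fold against ST2-high (log2 4.39 ± 0.44, adjusted p = 3.7e-05) in edgeR. Hspa1a, its neighbour on chromosome 17, stood at 5.03, 3.92 and 8.43 CPM in ST2KO, against 0.488, 0.406 and 0.659 in ST2-high and 0.594, 0.551 and 0.703 in ST2-low. Here too the groups did not overlap, with 9.07-fold against ST2-low and 10.98-fold against ST2-high, though the wild-type values rest on 7 to 14 reads a library. The transcripts of the pair share 1716 stretches of 50 bases, 58.8% of those in Hspa1a and 62.3% of those in Hspa1b, so how reads were divided between them is uncertain. The same order of ST2KO libraries, replicate 3 highest and replicate 2 lowest, was seen in both.

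The HSP110 genes, whose products recharge HSP70 with ATP, split. Hsph1 was at 273, 196 and 417 CPM in ST2KO, against 69.7, 70.0 and 67.5 in ST2-high and 72.9, 65.6 and 65.6 in ST2-low. The wild-type libraries lay within a few CPM of each other while the ST2KO libraries differed 2.13-fold among themselves, and all lay above; the fold was 4.32 against ST2-low (adjusted p = 0.00054) and 4.25 against ST2-high (adjusted p = 0.00055) by edgeR. Hspa4l was at 46.1, 41.7 and 61.0 CPM in ST2KO, against 30.6, 31.5 and 32.8 in ST2-high and 27.6, 33.8 and 28.0 in ST2-low, or 1.55-fold and 1.65-fold higher than ST2-high and ST2-low. The third member, Hspa4, went the other way, at 193, 180 and 236 CPM in ST2KO, against 278, 290 and 275 in ST2-high and 288, 294 and 286 in ST2-low. None of the ST2KO values of these 3 genes overlapped a wild-type value. Per kilobase of exon, Hsph1 was the most abundant of the 3 in ST2KO, at 69.9 CPM, whereas Hspa4 was in both wild-type groups, at 60.9 in ST2-high and 62.7 in ST2-low.

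**Figure D1:**
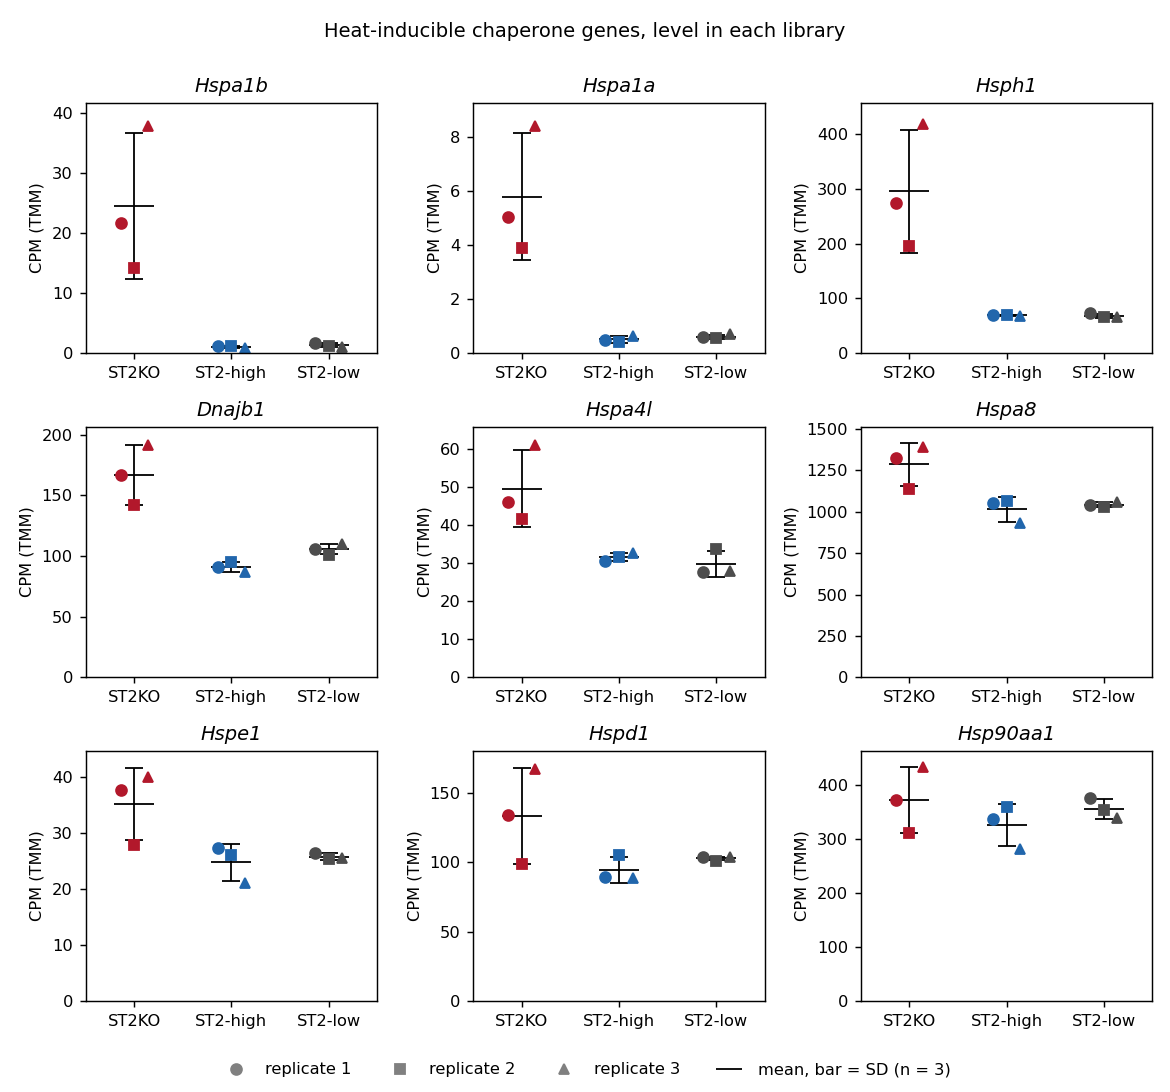
Level of 9 of the 14 listed heat-inducible chaperone genes in each library in CPM with TMM factors, by group (ST2KO, ST2-high, ST2-low). Symbols are replicates, horizontal lines the mean and bars the SD of 3 libraries. Not shown from the list are Hspa4, called lower in ST2KO, and Hsp90ab1, Dnaja1, Dnajb4 and Hspb1, which were not called. Hspa1b, Hspa1a, Hsph1, Dnajb1, Hspa4l, Hspa8 and Hspe1 lie above both wild-type groups in all 3 ST2KO libraries, and ST2KO replicate 3 is the highest of its group in every panel; Hspd1 and Hsp90aa1 overlap.

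Dnajb1 and Hspa8 were also higher in both comparisons. Dnajb1, the J-domain partner that delivers clients to HSP70 under stress, was at 167, 142 and 191 CPM in ST2KO, against 90.5, 94.9 and 86.6 in ST2-high and 106, 101 and 110 in ST2-low. It was higher in all 3 ST2KO libraries, 1.83-fold over ST2-high (adjusted p = 1.1e-08) and 1.58-fold over ST2-low (adjusted p = 5.8e-07) by edgeR. Hspa8, the constitutive HSC70, was with Hsp90ab1 the most abundant member per kilobase of exon in every group, at 537 CPM per kilobase in ST2KO, 424 in ST2-high and 435 in ST2-low (Cct6a had no length). As CPM, Hspa8 was at 1324, 1140 and 1394 CPM in ST2KO, against 1051, 1066 and 930 in ST2-high and 1041, 1028 and 1059 in ST2-low. Its rise was 1.27-fold over ST2-high and 1.23-fold over ST2-low, with no overlap. Small nucleolar RNA genes lie within Hspa8 in the RefSeq table, and whether their reads were counted with it is not given in the sources used here.

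The mitochondrial chaperonin consists of Hspd1 (HSP60) and its lid Hspe1 (HSP10). Hspe1 was at 37.7, 28.0 and 40.0 CPM in ST2KO, against 27.4, 26.1 and 21.1 in ST2-high and 26.5, 25.4 and 25.6 in ST2-low, which is 1.41-fold and 1.36-fold higher. The lowest ST2KO library was only just above the highest wild-type one. Hspd1 was at 134, 98.7 and 167 CPM in ST2KO, against 89.5, 105 and 88.6 in ST2-high and 104, 101 and 104 in ST2-low, and was not called (adjusted p = 0.055 against ST2-high and 0.13 against ST2-low, edgeR). ST2KO replicate 2 fell within the wild-type range; without it Hspd1 was called higher in both comparisons, with adjusted p = 2.2e-07 against ST2-high and 4.3e-06 against ST2-low. With limma-voom on all libraries it was called higher in both comparisons too. Hspd1 and Hspe1 overlap in the RefSeq table and the strand setting of the counting is not given in the sources used here.

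Neither cytosolic HSP90 gene was called by edgeR with all libraries. Hsp90aa1, the inducible form, was at 372, 311.6 and 434 CPM in ST2KO, against 337, 359 and 282 in ST2-high and 375, 353 and 339 in ST2-low. Hsp90ab1, the constitutive form, was at 1301, 1111 and 1501 CPM in ST2KO, against 1279, 1245 and 1113 in ST2-high and 1387, 1285 and 1315 in ST2-low. In both, ST2KO replicate 3 lay above every wild-type library; ST2KO replicate 2 was inside the wild-type range for Hsp90aa1 and just below it for Hsp90ab1. Without ST2KO replicate 2 both were called higher against ST2-high (adjusted p = 0.0054 and 0.0091), as was Dnaja1 (adjusted p = 0.0086), a J-domain protein at 249, 207 and 317 CPM in ST2KO, between 231 and 251 in ST2-high and between 242 and 261 in ST2-low. Against ST2-low, leaving out any single library called none of these 3. Of the genes grouped by symbol as small heat shock proteins, Hspb1, Hspb6 and Hspb11 were at under 4 CPM in every library and edgeR called none. Hspb6 was near the threshold, lower in ST2KO with adjusted p = 0.053 against ST2-high and 0.066 against ST2-low, and with limma-voom it passed in each comparison (adjusted p = 0.0491 against ST2-high and 0.0487 against ST2-low), as it did in edgeR without ST2KO replicate 3 (0.027 and 0.034) and, against ST2-high, without ST2-high replicate 1 or 3 (0.037 and 0.035).

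A single order of the ST2KO libraries ran through the heat-inducible genes. Replicate 3 was the highest and replicate 2 the lowest ST2KO library in 13 of the 14, or 92.9%, and in 7 of the 8 CCT genes. Over all members this order held in 46% and over all tested genes in 19.8%. The same order by replicate number occurred in 1 of 14 in ST2-high and 4 of 14 in ST2-low. The summed level of the 14 genes was 4175, 3523 and 4864 CPM in ST2KO, 3546, 3603 and 3174 in ST2-high and 3742, 3614 and 3632 in ST2-low, so that by this sum ST2KO replicate 2 lay inside the wild-type range. ST2KO replicate 3 was also the shallowest library and had the highest share of the ribosomal precursor Rn45s, 16.9% against 12.1% to 16.7% elsewhere; the part of either in this order was not tested.

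**Figure D2:**
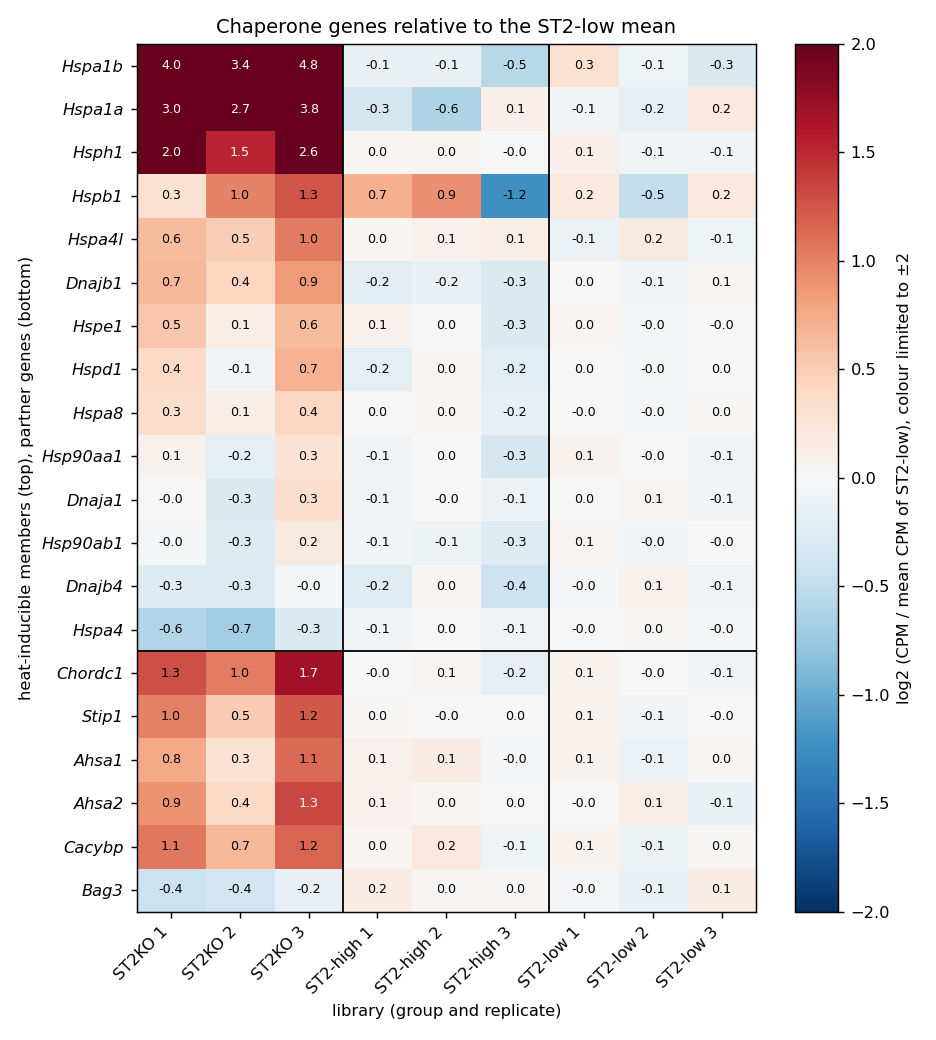
Log2 of the level in each library over the ST2-low mean, for the 14 heat-inducible members (above the line) and 6 of their partner genes (below it); columns are libraries, colour is limited at 2 on either side, and each cell prints its value. Within ST2KO, replicate 3 has the highest value in each of the 14 upper rows, and Hspa4, Dnajb4 and Bag3 are below the ST2-low mean in all 3 ST2KO libraries. The partners shown do not represent all tested partner genes, which were called in both directions. Unc45a, Fnip1, Tomm34 and Bag6, which had the smallest adjusted p and were lower, are not shown. Chordc1, Stip1, Ahsa1 and Ahsa2 were chosen after their values were seen.

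Of the other HSP70 proteins, 3 were lower in ST2KO and 1 was higher. Hspa2, which in mice is best known from spermatogenesis, was at 8.94, 6.43 and 5.32 CPM in ST2KO, against 25.9, 31.4 and 29.3 in ST2-high and 14.5, 14.01 and 13.6 in ST2-low. The 3 groups did not overlap: ST2KO was 3.92-fold lower than ST2-high (adjusted p = 1.0e-13) and 1.92-fold lower than ST2-low (adjusted p = 7.9e-07), and ST2-high was 2.05-fold higher than ST2-low (adjusted p = 1.1e-07), all by edgeR. Hspa9, the mitochondrial HSP70 that pulls imported proteins inward, was at 140, 133 and 151 CPM in ST2KO, against 202, 198 and 184 in ST2-high and 212, 210 and 213 in ST2-low. It was 1.38-fold lower than in ST2-high and 1.499-fold lower than in ST2-low. Hspa13, a microsomal HSP70 relative, was at 25.5, 24.3 and 25.3 CPM in ST2KO, against 41.1, 42.1 and 37.0 in ST2-high and 35.6, 35.0 and 35.2 in ST2-low. Hspa12a, a distant relative of HSP70, was at 6.16, 7.30 and 4.91 CPM in ST2KO, against 2.37, 2.72 and 2.18 in ST2-high and 3.08, 2.98 and 2.01 in ST2-low, or 2.54-fold and 2.30-fold higher. Of these 4 genes none overlapped between ST2KO and either wild-type group. Hspa14 was not called by edgeR in any comparison, with adjusted p = 0.052 against ST2-high, where it was called lower by limma-voom (adjusted p = 0.0482), with DESeq2 size factors (0.034) and without ST2-high replicate 3 (0.0066). Hspbp1, an HSP70 nucleotide exchange factor counted among the members by its symbol, was called in none of the comparisons under any alternative run.

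Differences in the CCT ring were small. Its 8 subunit genes, Tcp1 and Cct2 to Cct8, had log2 changes between -0.31 and 0.01 against ST2-low and between -0.30 and 0.09 against ST2-high. Only Cct2 was called in both, at 199, 181 and 198 CPM in ST2KO, against 239, 260 and 214 in ST2-high and 238, 240 and 237 in ST2-low. It was 1.24-fold lower in each comparison (adjusted p = 4.5e-05 and 4.2e-05, edgeR), without overlap. Tcp1 was called 1.10-fold lower than in ST2-high, with overlapping groups, and that call was lost with upper-quartile normalization (adjusted p = 0.32) and without ST2KO replicate 1 or 2 or ST2-high replicate 2 (adjusted p between 0.084 and 0.18). Cct5 and Cct7, not called here, were each called lower than in ST2-low in 6 of 16 alternative runs. Among these were edgeR with DESeq2 size factors (adjusted p = 0.015 and 0.029), the DESeq2 Wald test (0.018 and 0.040) and edgeR without ST2KO replicate 3 (0.016 and 0.036). Without ST2-high replicate 3 both were also called lower than in ST2-high (0.0077 and 0.026, edgeR), as was Cct5 without ST2KO replicate 3 (0.023). Cct4, also not called here, was called higher than in ST2-high with upper-quartile normalization (adjusted p = 0.012) and without ST2KO replicate 2 (0.031). Cct8 had the highest change against ST2-low, at 161, 147 and 169 CPM in ST2KO, between 150 and 163 in ST2-high and between 152 and 162 in ST2-low.

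**Figure D3:**
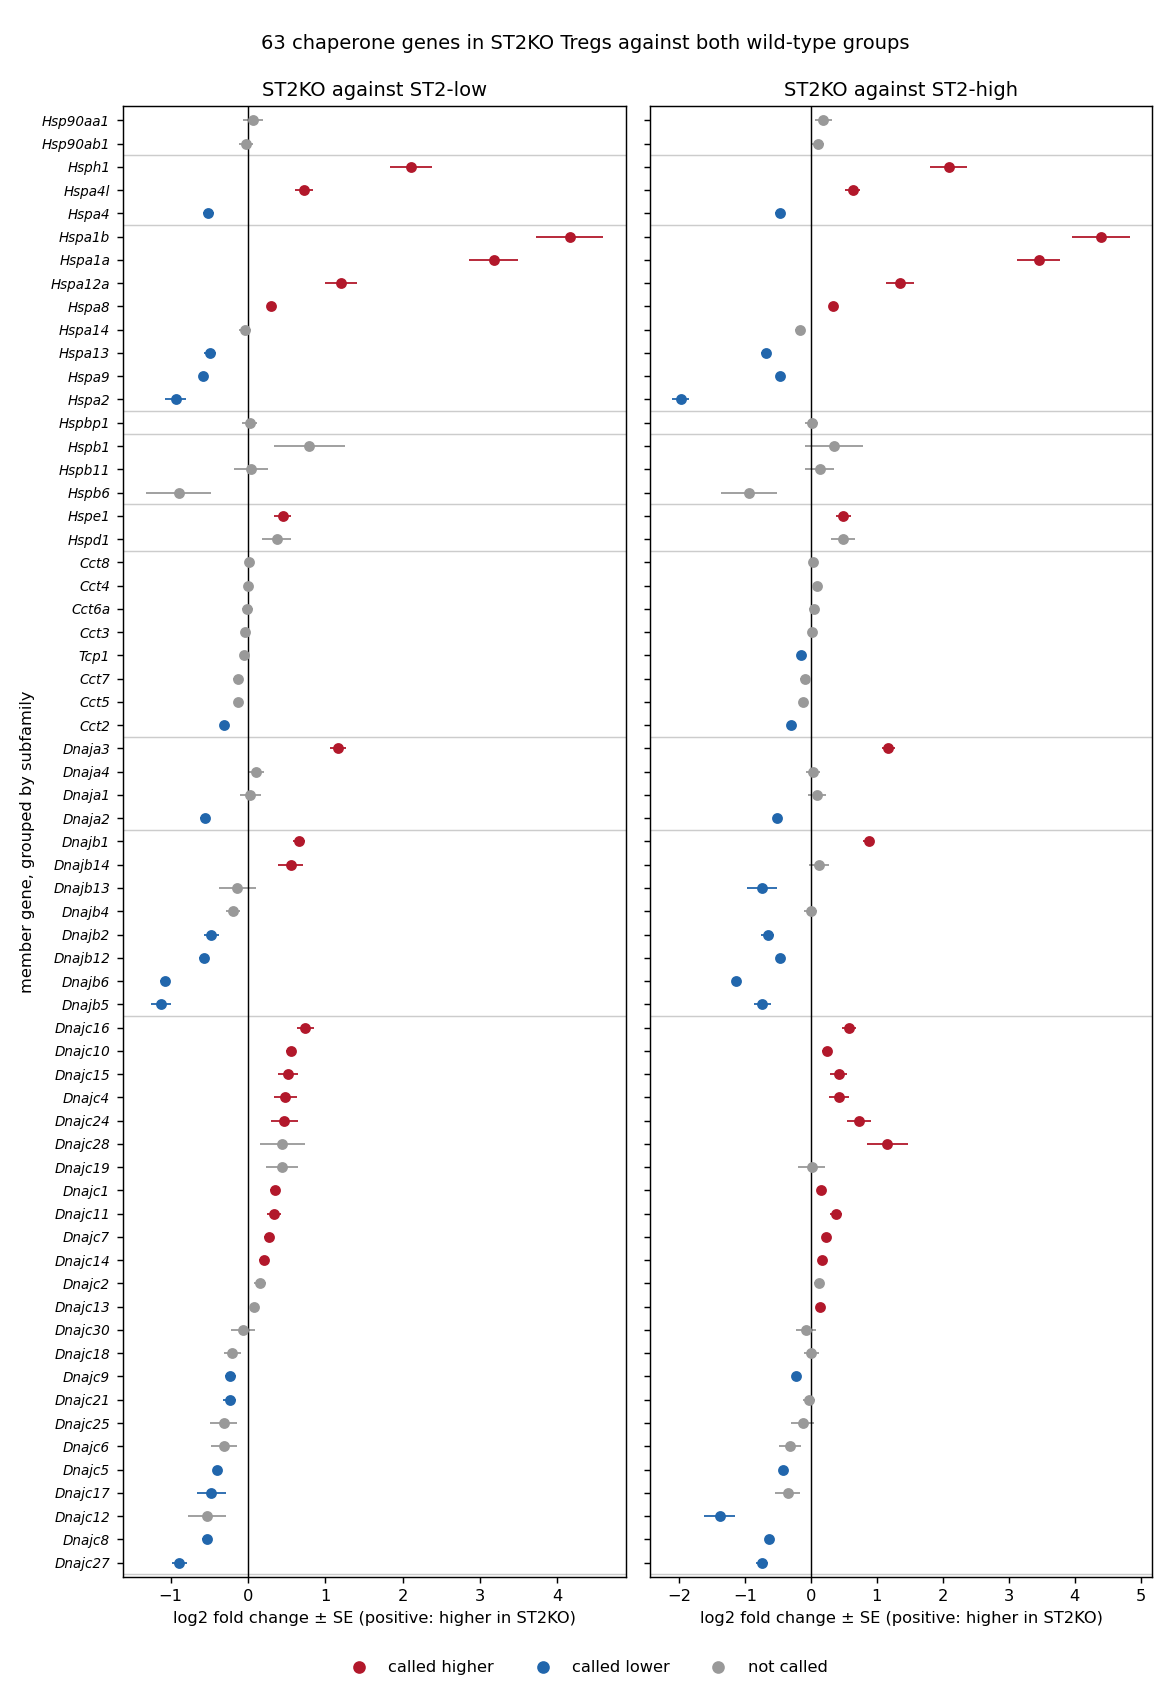
Log2 fold change with its SE for each of the 63 members, ST2KO against ST2-low (left) and ST2KO against ST2-high (right), grouped by subfamily with lines between the groups; positive is higher in ST2KO, and colour gives the call by edgeR at an adjusted p of 0.05. Hspa1b, Hspa1a and Hsph1 stand out to the right, and the CCT subunits lie close to 0.

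The 36 J-domain genes were called in both directions. Against ST2-low 12 were higher and 11 lower, and against ST2-high 13 and 11. The shares called, 63.9% and 66.7%, were near those of all tested genes, 62.3% and 64.5%. The largest rise was in Dnaja3 (Tid1), a J-domain protein of mitochondria, at 31.3, 31.7 and 29.0 CPM in ST2KO, against 11.96, 15.6 and 13.7 in ST2-high and 12.9, 12.96 and 15.2 in ST2-low. Its ST2KO libraries were close to each other and all well above the rest, 2.26-fold over ST2-high (adjusted p = 2.6e-11) and 2.25-fold over ST2-low (adjusted p = 3.3e-11, edgeR). Unlike in the heat-inducible genes, replicate 3 was the lowest of the ST2KO libraries.

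Other rises were smaller. Dnajc16 was at 19.9, 20.5 and 16.7 CPM in ST2KO, against 13.1, 12.3 and 13.1 in ST2-high and 13.1, 10.9 and 10.5 in ST2-low. Dnajc15, an inner mitochondrial membrane protein known in mice as a brake on the respiratory chain, was at 13.6, 13.03 and 11.3 CPM in ST2KO, against 10.8, 8.98 and 8.50 in ST2-high and 8.32, 9.98 and 8.59 in ST2-low. Both were above every wild-type library, by 1.495-fold and 1.34-fold against ST2-high and by 1.67-fold and 1.43-fold against ST2-low. Dnajc24, which takes part in making diphthamide on elongation factor 2, was at 7.05, 5.78 and 7.12 CPM in ST2KO, against 3.56, 3.42 and 5.34 in ST2-high and 4.59, 5.18 and 4.67 in ST2-low. Dnajc4 was at 9.66, 8.004 and 8.02 CPM in ST2KO, against 6.38, 5.80 and 7.31 in ST2-high and 5.94, 6.18 and 6.53 in ST2-low. Both passed the test in each comparison and did not overlap, but without ST2KO replicate 1 the Dnajc24 call against ST2-low (adjusted p = 0.11) and both Dnajc4 calls (adjusted p = 0.081 against ST2-low and 0.14 against ST2-high) were lost, and other left-out libraries ended some of them too.

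Falls of about the same size as the Dnaja3 rise were seen in the DNAJB class. Dnajb6, which keeps aggregation-prone proteins soluble, was at 40.0, 46.3 and 43.8 CPM in ST2KO, against 93.4, 91.6 and 97.99 in ST2-high and 92.3, 92.1 and 88.1 in ST2-low. It was 2.19-fold lower than in ST2-high (adjusted p = 6.2e-16) and 2.11-fold lower than in ST2-low (adjusted p = 2.5e-15, edgeR), with a gap far above the spread in any group. Dnajb5 was at 8.14, 7.13 and 7.198 CPM in ST2KO, against 14.4, 11.9 and 11.3 in ST2-high and 18.6, 16.7 and 14.4 in ST2-low. Its fall was 1.67-fold against ST2-high and 2.18-fold against ST2-low, with no overlap. Dnajb12, a J-domain protein of the endoplasmic reticulum membrane, was at 34.3, 32.6 and 35.8 CPM in ST2KO, against 48.0, 46.7 and 47.1 in ST2-high and 51.5, 49.3 and 51.3 in ST2-low. Dnajb2, which binds ubiquitin chains, was at 19.1, 18.7 and 23.9 CPM in ST2KO, against 30.3, 30.1 and 35.8 in ST2-high and 24.95, 28.5 and 31.0 in ST2-low. Both were below every wild-type library, 1.38-fold and 1.58-fold against ST2-high and 1.48-fold and 1.39-fold against ST2-low.

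Among the remaining J-domain genes that fell, Dnajc27, a small GTPase with a J domain, was at 15.2, 14.5 and 13.4 CPM in ST2KO, against 23.3, 24.6 and 25.2 in ST2-high and 24.9, 26.9 and 28.9 in ST2-low. Dnajc8, found with the splicing machinery, was at 50.2, 48.0 and 48.3 CPM in ST2KO, against 79.1, 74.0 and 74.7 in ST2-high and 72.0, 70.0 and 70.9 in ST2-low. Dnaja2, a cytosolic HSP70 partner, was at 113, 114 and 120 CPM in ST2KO, against 173, 177 and 144 in ST2-high and 176, 165 and 168 in ST2-low. All 3 were lower in every ST2KO library, by 1.67-fold, 1.55-fold and 1.43-fold against ST2-high and by 1.85-fold, 1.45-fold and 1.47-fold against ST2-low. Dnajc5, the cysteine string protein of secretory vesicles, averaged 178.8 ± 4.39 CPM in ST2KO, 241 ± 12.7 in ST2-high and 237 ± 6.97 in ST2-low (SD, n = 3 each) and was 1.35-fold and 1.33-fold lower.

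Of the remaining J-domain genes, Dnajc10 was 1.18-fold higher than in ST2-high (adjusted p = 0.0029) and 1.47-fold higher than in ST2-low (adjusted p = 4.3e-08, edgeR). Dnajc7, a co-chaperone that binds both HSP70 and HSP90, averaged 114 ± 4.14 CPM in ST2KO, 98.1 ± 3.02 in ST2-high and 94.9 ± 4.94 in ST2-low (SD, n = 3 each). It was higher in both comparisons, as were Dnajc1, Dnajc11 and Dnajc14, and Dnajc9, known in human cells as a histone chaperone, was lower in both. Called against ST2-low alone were Dnajb14 (1.46-fold higher), Dnajc21 (1.18-fold lower) and Dnajc17 (1.39-fold lower). Called against ST2-high alone were Dnajc28 (2.24-fold higher, at a mean of 2.14 CPM in ST2KO and 0.951 in ST2-high), Dnajc13 (1.10-fold higher), Dnajb13 (1.67-fold lower) and Dnajc12 (2.61-fold lower). Dnaja1, Dnaja4, Dnajb4, Dnajc2, Dnajc6, Dnajc18, Dnajc19, Dnajc25 and Dnajc30 were called in neither by edgeR. Against ST2-low, limma-voom called Dnajb4 lower (adjusted p = 0.0303) and Dnajc19 higher (0.036), the DESeq2 Wald test also called Dnajb4 (0.0296), and with upper-quartile normalization Dnajc2 was called higher in both comparisons (0.0194 against ST2-high and 0.0101 against ST2-low). Dnajc12 was called lower than in ST2-low with DESeq2 size factors (0.0481) and limma-voom (0.0479). Dnajc13 was called higher than in ST2-low with upper-quartile normalization (0.017). Neither Dnajc12 nor Dnajc13 overlapped between ST2KO and ST2-low. Leaving out 1 library also gave calls in edgeR: against ST2-low for Dnajb4 and Dnajc19 without ST2KO replicate 3, Dnajc2 and Dnajc18 without ST2KO replicate 2, Dnajc18 and Dnajc19 without ST2-low replicate 1 and Dnajc25 without ST2-low replicate 2, and against ST2-high for Dnajc2 and Dnaja1 without ST2KO replicate 2 and Dnajc6 without ST2-high replicate 3 (adjusted p between 0.0086 and 0.0475). Several of the smaller calls rested on single libraries. Without ST2-high replicate 1, Dnajc14, Dnajc1 and Dnajc13 were not called against ST2-high (adjusted p = 0.18, 0.17 and 0.13), and the same 3 calls were lost without ST2-high replicate 2 (adjusted p = 0.11, 0.082 and 0.17). They were also lost for Dnajc14 without ST2KO replicate 1 or 2 (0.054 and 0.052), for Dnajc1 without ST2KO replicate 1 or 3 (0.0504 and 0.066) and for Dnajc13 without ST2KO replicate 2 (0.088). Against ST2-low, the call of Dnajc14 was lost without ST2-low replicate 2 (adjusted p = 0.069) and that of Dnajc21 without ST2KO replicate 1 (0.18). Dnajc17 was not called against ST2-low without ST2KO replicate 2 or 3 or ST2-low replicate 3 (adjusted p = 0.069, 0.11 and 0.16). With upper-quartile normalization in edgeR, the calls of Dnajc21 and Dnajc17 against ST2-low were lost (adjusted p = 0.093 and 0.058). The call of Dnajc9 against ST2-high was lost there too (0.080).

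**Figure D4:**
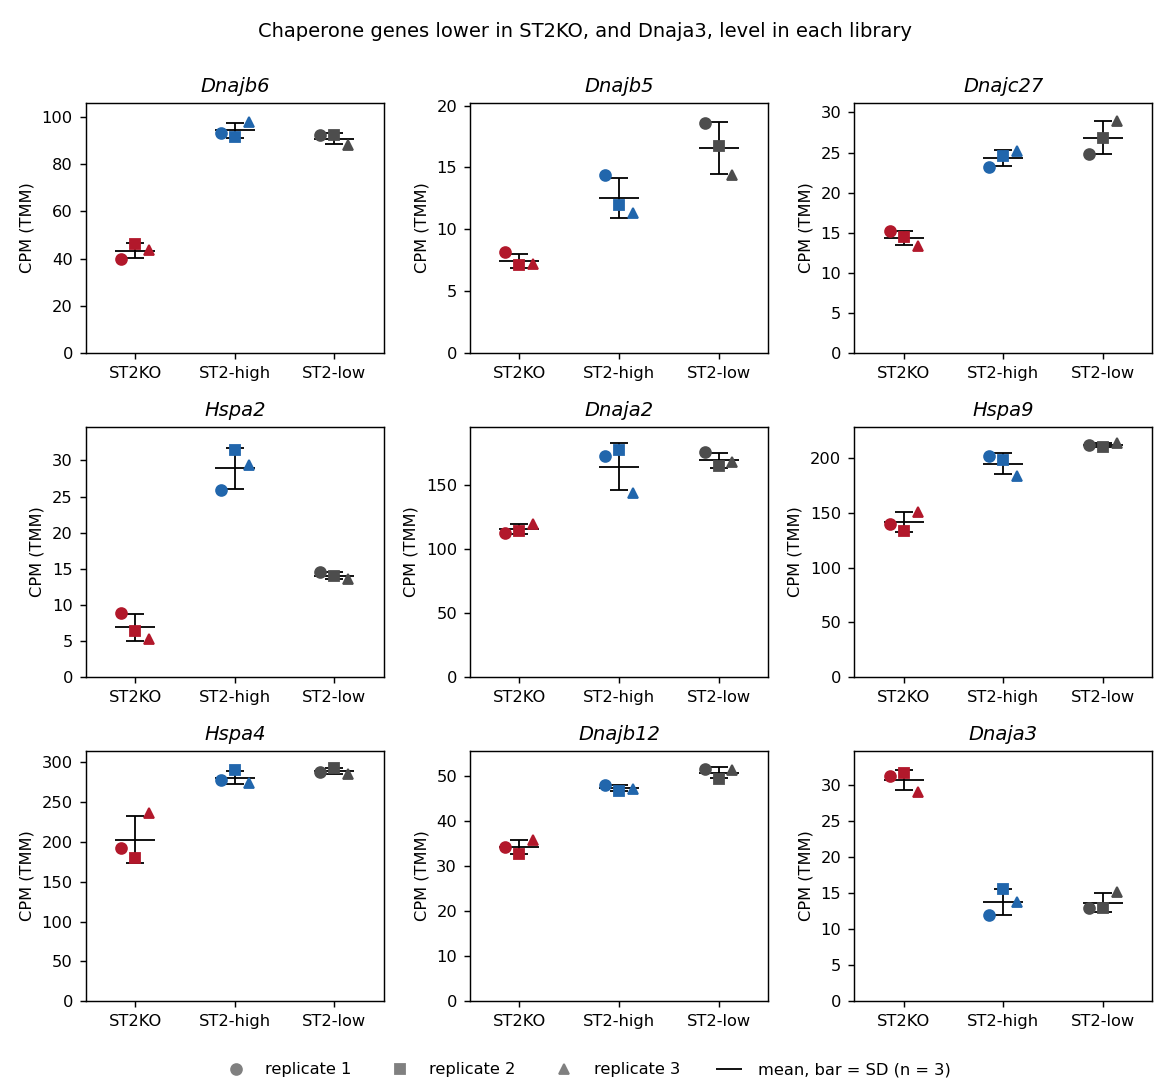
Level in each library in CPM with TMM factors for 8 members that were lower in ST2KO than in both wild-type groups, and for Dnaja3, which was higher; symbols are replicates, horizontal lines the mean and bars the SD of 3 libraries. In all 9 panels the ST2KO libraries do not overlap the wild-type libraries. Hspa2 (higher in ST2-high) and Hspa9 and Dnajb12 (lower in ST2-high) also do not overlap between the wild-type groups. Of these, only Hspa2 was called there by edgeR.

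Between the wild-type groups the chaperones differed little. In ST2-high against ST2-low 6 members were higher and 2 lower, 12.7% of the 63, where 15.3% of all tested genes were called higher, 10.8% lower and 26.1% in either direction. Counted by libraries alone, 7 members were higher in every ST2-high library than in every ST2-low library and 6 lower, where 20.5% and 17.6% of all genes were. With DESeq2 size factors in the same test the split was 4 higher and 4 lower, and without ST2-high replicate 3 it was 5 higher and 0 lower. Those runs called 27% and 26.3% of all tested genes in either direction. Of the 14 heat-inducible genes 1 was called: Dnajb1 was 1.16-fold lower in ST2-high (adjusted p = 0.04997), at 90.5, 94.9 and 86.6 CPM in ST2-high against 106, 101 and 110 in ST2-low. That call sat at the threshold and was lost when any 1 wild-type library was left out, with adjusted p between 0.057 and 0.25.

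After Hspa2, the smallest adjusted p between the wild-type groups was that of Dnajc10. This gene encodes ERdj5 of the endoplasmic reticulum, which reduces disulfides of proteins bound for degradation, and was at 49.3, 46.7 and 44.1 CPM in ST2-high, against 40.1, 34.6 and 38.1 in ST2-low, 1.24-fold higher (adjusted p = 0.00093, edgeR). Dnajc1, a ribosome-binding J-domain protein of the same organelle, was at 75.1, 74.8 and 80.9 CPM in ST2-high, against 68.0, 69.1 and 64.2 in ST2-low, 1.15-fold higher (adjusted p = 0.013). Neither overlapped between the groups, and both were higher still in ST2KO, between 54.6 and 55.7 CPM for Dnajc10 and between 83.7 and 87.9 for Dnajc1. Without ST2-low replicate 3 the Dnajc1 call was lost (adjusted p = 0.081).

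The other 4 calls were of low genes or weak. Dnajc12, a partner of aromatic amino acid hydroxylases, was at 4.04, 6.03 and 4.22 CPM in ST2-high, against 2.70, 2.87 and 2.31 in ST2-low (1.80-fold higher, adjusted p = 0.0051), and was between 1.54 and 2.13 in ST2KO; without ST2-high replicate 2 the adjusted p was 0.065. Dnajb13, a protein of motile cilia and sperm tails, was at 5.47, 4.75 and 5.21 CPM in ST2-high, against 4.92, 3.03 and 2.26 in ST2-low, and was at 3.43, 3.10 and 2.45 in ST2KO. Dnajb14 was at 6.41, 7.30 and 8.63 CPM in ST2-high, against 5.56, 4.96 and 5.83 in ST2-low, and was at 8.66, 7.01 and 8.10 in ST2KO. The wild-type groups overlapped in Dnajb13 (1.52-fold higher in ST2-high) and not in Dnajb14 (1.35-fold higher). Dnajb5, given above, was 1.303-fold lower in ST2-high with overlapping groups. The calls of Dnajb13 (adjusted p = 0.047), Dnajb14 (0.045) and Dnajb5 (0.020), by edgeR, did not hold when single libraries were left out. Dnajb13 was lost without any 1 library other than ST2-low replicate 1, Dnajb14 without any 1 other than ST2-high replicate 1, and Dnajb5 without ST2-high replicate 2 or 3 or ST2-low replicate 1 or 2.

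Neither Hsf1 nor Hsf2, the transcription factor genes of the heat shock response, was called higher in ST2KO. Of 6 tested genes of heat shock factors and their regulators, 1 was higher and 2 lower than in ST2-high, and none higher and 1 lower than in ST2-low. Over all tested genes, 31.9% were higher and 32.6% lower than in ST2-high, and 33.0% and 29.3% against ST2-low. Hsf1 was at 62.3, 61.3 and 67.7 CPM in ST2KO, against 57.8, 59.5 and 59.5 in ST2-high and 68.9, 69.5 and 70.8 in ST2-low, and was not called against ST2-high (adjusted p = 0.11) or ST2-low (adjusted p = 0.055, edgeR). It was 1.18-fold lower in ST2-high than in ST2-low (adjusted p = 0.0026). Hsf2, a relative with a role in development, was at 15.5, 17.8 and 16.4 CPM in ST2KO, against 23.8, 25.9 and 25.6 in ST2-high and 22.7, 24.1 and 24.1 in ST2-low, 1.52-fold and 1.44-fold lower. HSF1 is governed mainly at the protein level, which was not measured.

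Co-chaperones of HSP70 and HSP90 also moved both ways. Of 36 tested, 15 were called higher in ST2KO against ST2-low and 12 lower, and 16 higher and 12 lower against ST2-high. The shares called, 75.0% and 77.8%, compare with 62.3% and 64.5% of all tested genes, of which 33.0% were higher and 29.3% lower against ST2-low and 31.9% and 32.6% against ST2-high. The largest rise was in Chordc1, an HSP90 partner, at 116, 95.9 and 151 CPM in ST2KO, against 47.1, 49.2 and 42.2 in ST2-high and 49.7, 47.1 and 45.4 in ST2-low, or 2.60-fold and 2.53-fold. Stip1, which links HSP70 to HSP90, was at 129, 90.5 and 151 CPM in ST2KO, against 64.4, 63.5 and 63.8 in ST2-high and 66.8, 61.2 and 63.2 in ST2-low. Both ran in the library order of Hsph1 and overlapped with no wild-type library, as did Ahsa1 and Ahsa2, activators of the HSP90 ATPase (1.60-fold and 1.81-fold higher than ST2-high, 1.69-fold and 1.87-fold higher than ST2-low). These rises were chosen after their values were seen.

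The co-chaperones with the smallest adjusted p were falls. Unc45a, an HSP90 partner in folding myosin, was at 82.3, 89.5 and 103 CPM in ST2KO, against 162, 166 and 176 in ST2-high and 179, 184 and 197 in ST2-low, 1.85-fold and 2.06-fold lower. Fnip1 and Tomm34 were lower by 1.74-fold and 1.59-fold against ST2-high and by 1.89-fold and 1.63-fold against ST2-low, and Bag6, which triages misplaced membrane proteins, by 1.44-fold and 1.51-fold. Bag3, an HSP70 exchange factor that is itself a textbook HSF1 target, was at 27.7, 28.5 and 33.2 CPM in ST2KO, against 41.3, 37.8 and 37.6 in ST2-high and 36.4, 33.7 and 41.1 in ST2-low, and was lower in both comparisons (adjusted p = 0.00011 and 0.0011, edgeR). Of 13 prefoldin and CCT partner genes, 3 were lower and none higher than in ST2-high, and 4 were lower and none higher than in ST2-low, among them the prefoldin subunit gene Vbp1, 1.40-fold and 1.44-fold lower. These lower calls were 23.1% and 30.8% of the 13, beside 32.6% and 29.3% of all tested genes.

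Of the 6 endoplasmic reticulum chaperone genes not among the members, 5 were lower in ST2KO in both comparisons. Over all tested genes, 32.6% were lower than in ST2-high and 29.3% lower than in ST2-low. Hspa5 (BiP) was at 589, 596 and 647 CPM in ST2KO, against 963, 1059 and 921 in ST2-high and 1020, 1005 and 1018 in ST2-low. Dnajc3, an inhibitor of the kinase PERK, was the exception, at 138, 140 and 146 CPM in ST2KO, against 94.4, 87.9 and 91.5 in ST2-high and 99.1, 101 and 90.0 in ST2-low.

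Genes that mark cell handling and other cell types also differed. As background, 31.9% of all tested genes were higher and 32.6% lower than in ST2-high, and 33.0% and 29.3% against ST2-low. Of 23 immediate early genes, often raised by tissue dissociation, 4 were higher and 16 lower in ST2KO than in ST2-high, and 3 were higher and 17 lower than in ST2-low; Jun, Egr1 and Egr2 were higher in both comparisons, and Nr4a1 was 3.54-fold and 3.31-fold lower. Their summed level was between 6969 and 7062 CPM in ST2KO, 9936 and 10480 in ST2-high, and 9842 and 10120 in ST2-low. Of 10 B cell markers 6 were lower than in ST2-high and 5 lower than in ST2-low, with sums between 97.9 and 128 CPM in ST2KO, 125 and 160 in ST2-high, and 109 and 170 in ST2-low. Of 11 tested myeloid and dendritic markers 9 were lower in each comparison, with sums between 42.7 and 56.1 CPM in ST2KO, 136 and 137 in ST2-high, and 136 and 182 in ST2-low. Of 8 tested neutrophil markers 1 was higher and 4 lower than in ST2-high, and 1 was higher and 6 lower than in ST2-low, with sums between 3.84 and 5.73 CPM in ST2KO, 14.3 and 25.2 in ST2-high, and 12.8 and 45.6 in ST2-low. No marker of these lists was at 0 in all libraries. Of 7 NK cell markers 1 was higher than in ST2-high and 1 lower than in ST2-low. Among 5 tested erythroid and platelet markers, 1 was higher than in ST2-high and 1 lower than in ST2-low. All 3 tested plasma cell markers were lower than in ST2-low, and 2 were lower than in ST2-high. The part of these gene lists in the chaperone differences was not tested.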

How the data were processed

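Whole-number counts per gene symbol were deposited by the authors as 1 file per library, unnormalised, judged from the values. The aligner, genome build, annotation, counting tool, strand setting and library kit were not given in the labels or files. Of 23420 rows per file, 27 held symbols turned into dates (0.182% to 0.206% of counts) and were left out.

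The members and gene lists were chosen with earlier results of these data known. TMM factors and a filterByExpr filter (minimum count 10, total 15) left 12219 genes, tested in edgeR 4.0.16 (R 4.3.3, robust glmQLFit on all 9 libraries, groups as the sole terms), with Benjamini-Hochberg adjustment at 0.05. Levels are CPM with TMM factors. Errors are SD over 3 libraries or SE of the fit, and totals limit the precision of low genes. Per-kilobase levels use union exon lengths of the GENCODE annotation of mouse GRCm38. Promoter windows come from RefSeq, GRCm38.p6; 27 of the 63 members overlap another gene there, and reads of such genes may have been divided. The fit was tested on simulated data.

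Full values are given for called HSP70, HSP110, HSP90, small and chaperonin members at 5 CPM or more. They are also given for the 6 largest called rises and falls of Dnaj genes per comparison at 5 CPM or more. CCT genes are given by range. Of other lists, up to 4 genes could be named by the smallest adjusted p, and several are given by fold alone. Lists of other cell types are given by counts of calls and, for some, sums. Chordc1, Stip1, Ahsa1 and Ahsa2 were chosen after their values were seen. Alternatives were DESeq2 size factors, upper-quartile scaling, DESeq2 1.42.0, limma-voom (3.58.1), other filters, fewer libraries, a replicate block, no Rn45s, a minimum fold of 1.5 with glmTreat, and each library left out.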

Additional observations from a re-analysis of the deposited data

How the results depend on the processing

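No member reversed its called direction under any alternative run. Of 80 called results, 19 were kept by all of them, and 17 were ended by at least 1 alternative other than the minimum fold, mostly small changes in J-domain genes. With a minimum change of 1.5-fold, 5 members were higher and 4 lower in ST2KO against ST2-low. The ST2-high comparison gave 6 and 3 for ST2KO, beside 1 and 0 in ST2-high against ST2-low. At that setting 17.3%, 19.5% and 2.84% of all tested genes were called in either direction, in the same order of comparisons. In ST2-high against ST2-low, 4 members were lower with DESeq2 size factors and 1 with a filter of 10 counts in 3 libraries. These runs called 27% and 25.7% of all tested genes in either direction. Leaving out 1 library at a time gave 3 to 5 higher and 0 to 1 lower in ST2-high against ST2-low. For ST2KO it gave 17 to 21 higher and 15 to 19 lower against ST2-low. Against ST2-high it gave 16 to 24 higher and 16 to 22 lower. In those runs the shares called of all tested genes were 20% to 26.3%, 56.2% to 59.2% and 57.6% to 62.6%, in the same order. The cause of these differences was not tested.

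The replicate number as a block gave the same counts (19 and 16, 20 and 17, 6 and 2). It called 62.4%, 64.5% and 26.3% of all tested genes. Deviations of same-numbered libraries correlated between -0.079 and 0.13, and not every library correlated best with its own number. In ST2KO against ST2-low every library did, at 0.034, 0.086 and 0.047. With 3 libraries per group, correlations this weak cannot tell whether same-numbered libraries shared a mouse or a batch. Hspb1, Hspb6 and the wild-type level of Hspa1a rest on few reads, which limits what can be detected there.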
